A study of Mus musculus with 28 samples.

Results

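The genes examined here encode 9 feedback inhibitors of mitogen-activated protein kinase (MAPK) signalling: the dual-specificity phosphatases Dusp1, Dusp4, Dusp5 and Dusp6, the Sprouty proteins Spry1, Spry2 and Spry4, and the Sprouty-related proteins Spred1 and Spred2. They were taken by symbol from the 23951 gene symbols of the expression tables, and all 9 were among the 11728 symbols that passed the expression filter, a mean of at least 1 FPKM (fragments per kilobase of transcript, scaled to the mapped fragments of the library) over the 5 clones. The study depleted the histone variant H3.3 in mouse NIH/3T3 Tet-On 3G fibroblasts, an embryonic fibroblast line that carries a doxycycline-responsive transactivator, and measured gene expression and binding of subunits of the NuRD complex, which joins nucleosome remodelling to histone deacetylation. Expression was measured by sequencing of polyadenylated RNA in 2 control clones, labelled wild type and transduced with GFP-Luciferase and OFP-Luciferase, and in 3 H3.3 knockdown clones, transduced with OFP-H3.3A and GFP-H3.3B. ChIP-seq of RBBP4 and MTA1 came from 1 library each of control and knockdown cells with the same constructs. ChIP-seq of CHD4, HDAC1, HDAC2, MBD2/3, MTA1, RBBP4, H3K4me3, H3K9ac and H3K27ac came from 1 library each of unmodified wild-type cells. HA-H3.3 came from 2 libraries of cells that carry an HA/FLAG-H3.3 construct and were treated with doxycycline and aphidicolin, an inhibitor of DNA replication. A sequential FLAG then RBBP4 ChIP came from 1 library of such cells treated with doxycycline. All cells grew in medium with 10% FBS, so the levels below are those of cells in serum. The treatment label of the RNA clones also names the FLAG/HA-H3.3 fibroblasts and doxycycline, so whether those clones carry tagged H3.3 cannot be told from the labels. Each RNA sample is a clone, so clonal differences and the knockdown cannot be told apart within a clone, and the p-values measure the spread between clones.

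Growth factors acting through receptor tyrosine kinases activate Ras, Raf, MEK and ERK in turn. ERK signalling induces transcription of genes whose products switch the pathway off again, so the level of these transcripts is widely read as a gauge of recent pathway activity. The DUSP proteins remove the activating phosphates from the kinases themselves. Dusp1 and Dusp4 are nuclear and act on several MAPKs, Dusp5 is nuclear and prefers ERK, and Dusp6 is cytoplasmic and prefers ERK. Sprouty proteins act further upstream, between receptor and Raf, and Spred proteins recruit the Ras GTPase-activating protein neurofibromin to the membrane.

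The promoters of 4 members are shown because they differ in 3 kinds of known promoter element: the cyclic AMP response element bound by CREB family proteins (TGACGTCA, and its partial form TGACG), the CArG box bound by serum response factor, and the CCAAT box, a general element bound by NF-Y. The first 2 are known routes by which signals reach immediate-early genes. Each line holds the 250 bases upstream of the RefSeq transcription start, 5′ to 3′ on the strand of the gene, from build GRCm38.p6. Dusp1 lies on the reverse strand at chr17:26508473-26508722, and the others lie on the forward strand, Dusp5 at chr19:53528895-53529144, Dusp6 at chr10:99262981-99263230 and Spry1 at chr3:37639697-37639946. Capitals mark matches to those elements on either strand.
Dusp1: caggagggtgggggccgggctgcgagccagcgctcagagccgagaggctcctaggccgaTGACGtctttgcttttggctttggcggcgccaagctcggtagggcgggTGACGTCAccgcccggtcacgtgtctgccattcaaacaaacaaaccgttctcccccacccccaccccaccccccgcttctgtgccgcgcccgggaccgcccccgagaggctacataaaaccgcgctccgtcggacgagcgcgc
Dusp5: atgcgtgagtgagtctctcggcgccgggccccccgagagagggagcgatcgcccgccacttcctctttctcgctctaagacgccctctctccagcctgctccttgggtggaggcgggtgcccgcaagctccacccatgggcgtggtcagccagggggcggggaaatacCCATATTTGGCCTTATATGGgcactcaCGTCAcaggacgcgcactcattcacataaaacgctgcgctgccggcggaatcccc
Dusp6: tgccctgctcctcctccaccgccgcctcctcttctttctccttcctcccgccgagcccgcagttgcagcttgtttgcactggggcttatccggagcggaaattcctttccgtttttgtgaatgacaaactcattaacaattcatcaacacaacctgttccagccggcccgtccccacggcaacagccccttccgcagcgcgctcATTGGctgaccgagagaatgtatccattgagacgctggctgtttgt
Spry1: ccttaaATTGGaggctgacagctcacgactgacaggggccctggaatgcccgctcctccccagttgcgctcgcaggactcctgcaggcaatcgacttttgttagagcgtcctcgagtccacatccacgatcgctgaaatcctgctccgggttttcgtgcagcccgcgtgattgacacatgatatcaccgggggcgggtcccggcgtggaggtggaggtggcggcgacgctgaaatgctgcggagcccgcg
RefSeq promoters were matched for 7 members, all except Dusp4 and Spry4. Among 32851 promoters of the same length, searched on both strands, TGACGTCA was found in 1.55%, and among the members only Dusp1 held it, at -143. TGACG, which is contained in TGACGTCA, was found in 17.8% of promoters and in Dusp1, Dusp5 and Spred2. A CArG box was found in 1.47% of promoters, and among the members only Dusp5 held it, as 2 adjacent copies that begin at -82 and -72. CCAAT was found in 33.8% of promoters and in Dusp6 at -46 and Spry1 at -244. The GC box GGGCGG, which is not marked, was found in 32.7% of promoters and in 5 of the 7, and the AP-1 element TGANTCA in 6.75% and in none of the 7. All 7 windows were richer in G and C than the median promoter, with 56.0% to 70.8% against 52.4%, and held 12 to 31 CpG dinucleotides against a median of 6. A match describes the sequence and does not show that a factor bound there.

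The 2 control clones gave about 25900000 and 25200000 fragments by estimate and the knockdown clones 18200000, 26500000 and 18600000. The targeted genes H3f3a and H3f3b were lower in every knockdown clone, at 52.8%, 26.2% and 3.71% of the control mean for H3f3a and 59.4%, 42.9% and 21.3% for H3f3b in clones 1, 2 and 3. Knockdown clone 1, with the weakest depletion, stood apart from the rest on the first principal component of all genes (39.1% of the variance), at 72.58 against -40.09 to 0.59. All 8 fibroblast markers were expressed in every clone, with a summed level of 6444 to 7092 FPKM in the controls and 8116 to 9605 in the knockdown clones, and the part of this difference in the results below was not tested. None of the 4 epithelial and 3 neural markers reached a mean of 1 FPKM, and Cdh5, Cd68 and Des were the only endothelial, haematopoietic and muscle markers that did. The summed level of the 3 endothelial markers was 3.88 to 7.10 FPKM in the controls and 0.235 to 0.751 in the knockdown clones. Most of it was Cdh5, at 3.78 and 6.89 FPKM in the controls and 0.190, 0.170 and 0.495 in the knockdown clones (limma adjusted p = 0.280), while Kdr was below 0.1 FPKM on average. The part of this difference in the results below was not tested.

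In the control clones the members spanned a narrow range of expression, ordered here by mean level per transcript length. Spry2 (28.6 FPKM), Spred2 (27.5), Dusp1 (27.3) and Dusp6 (26.1) were highest, Dusp5 (18.3) and Dusp4 (17.7) followed, then Spred1 (14.4), Spry1 (13.3) and Spry4 (6.46). The control clones of Spry2, Dusp6, Dusp5 and Dusp4 differed by 1.95, 1.58, 1.51 and 1.95 times. The order among the first 4 and between Dusp5 and Dusp4 lay within that spread. Dusp5 and Dusp4 also overlapped Spry2 and Dusp6, though not Spred2 and Dusp1. The Dusp4 clones also reached into the range of Spred1 and Spry1. Spred1 and Spry1 did not overlap each other, and Spry4 lay below every other member in both clones. These levels placed the members between the 29.6th (Spry4) and 72.6th (Spry2) percentile of the tested genes, so none was rare or dominant among transcripts.

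No member differed between knockdown and control clones by limma on log2(FPKM + 1) with Benjamini-Hochberg adjustment over the 11728 genes. The members' adjusted p-values ran from 0.469 to 0.941, and 1 of the 9, Dusp4, had an unadjusted p under 0.05. Of all genes tested, 4 (0.0341%) were called, all of them short RNA genes, and 1150 had an unadjusted p under 0.05. The fitted value was lower in knockdown clones for 8 members, against 59.9% of all genes, and the median log2 difference was -0.52 over the members and -0.10 over all genes. All 3 knockdown clones lay below both control clones for 4 members, Dusp4, Spry4, Spred1 and Spred2, where 21.2% of all genes did, and lay above for 0 members, where 11.4% of all genes did. A lower value in bulk RNA does not tell fewer expressing cells from less RNA per cell.

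Dusp4, a nuclear phosphatase of ERK, JNK and p38, had the largest difference among the members. Its level was 23.4 and 12.0 FPKM in control clones 1 and 2 and 0.291, 1.49 and 7.77 FPKM in knockdown clones 1, 2 and 3. Every knockdown clone lay below both controls, and the knockdown clones spread over 26.8 times while the controls spread over 1.95 times. The estimated fragments behind these values were 1984 and 999 in the controls and 18, 134 and 484 in the knockdown clones, so the lowest value rests on few fragments. The log2 difference was -2.55 (SE 0.84, 95% interval -4.65 to -0.45, limma adjusted p = 0.469).

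Dusp1, the phosphatase induced by stress and serum, showed the widest scatter in both directions around the controls. It stood at 28.1 and 26.5 FPKM in the controls and at 12.0, 30.5 and 74.4 FPKM in knockdown clones 1, 2 and 3. Clone 1 lay below the controls and clones 2 and 3 above them, with clone 3 at 273% of the control mean. The log2 difference was 0.15 (SE 0.72, interval -1.67 to 1.97, limma adjusted p = 0.941), and without knockdown clone 3 it was -0.49. The order of Dusp1 over the knockdown clones, lowest in clone 1 and highest in clone 3, was also that of Dusp4, Dusp6, Spry4 and Spred2.

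Dusp6, the cytoplasmic ERK phosphatase often used as a readout of ERK activity, was at 32.0 and 20.2 FPKM in the controls and 6.63, 22.0 and 29.7 FPKM in the knockdown clones. Knockdown clone 1 was low, at 25.4% of the control mean, and clones 2 and 3 lay between the control values. The log2 difference was -0.60 (SE 0.63, interval -2.19 to 1.00, limma adjusted p = 0.713), and it was 0.00395 without knockdown clone 1. Dusp5, the nuclear ERK phosphatase, was at 22.0 and 14.6 FPKM in the controls and 9.58, 18.5 and 17.9 FPKM in the knockdown clones. As for Dusp6, only clone 1 lay outside the control range. The log2 difference of Dusp5 was -0.27 (SE 0.35, interval -1.15 to 0.62, limma adjusted p = 0.766) and was 0.0197 without that clone.

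Of the Sprouty genes, Spry4 was at 6.67 and 6.24 FPKM in the controls and 0.941, 3.07 and 4.28 FPKM in the knockdown clones. The knockdown clones all lay below the controls, at 14.6%, 47.6% and 66.3% of their mean. The log2 difference of Spry4 was -1.10 (SE 0.45, interval -2.24 to 0.027, limma adjusted p = 0.512), and it was -0.69 without knockdown clone 1. Spry1 was at 12.7 and 13.9 FPKM in the controls and 16.3, 13.2 and 8.66 FPKM in the knockdown clones. It was the only member with knockdown clone 1 above the control mean, and its highest and lowest values were both in knockdown clones. The log2 difference of Spry1 was -0.10 (SE 0.29, interval -0.81 to 0.62, limma adjusted p = 0.902), and it was 0.14 without knockdown clone 3. Spry2 was at 37.8 and 19.4 FPKM in the controls and 22.0, 23.7 and 22.3 FPKM in the knockdown clones. Its knockdown clones were close to each other and lay between the 2 control values. The log2 difference of Spry2 was -0.25 (SE 0.30, interval -1.02 to 0.51, limma adjusted p = 0.744), and it was 0.21 without control clone 1.

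Both Spred genes lay below the controls in every knockdown clone. Spred2 was at 27.2 and 27.8 FPKM in the controls and 7.84, 17.8 and 21.7 FPKM in the knockdown clones, a log2 difference of -0.87 (SE 0.43, interval -1.95 to 0.21, limma adjusted p = 0.524), and it was -0.47 without knockdown clone 1. Spred1 was at 14.4 and 14.3 FPKM in the controls and 7.77, 12.6 and 9.20 FPKM in the knockdown clones, a log2 difference of -0.52 (SE 0.24, interval -1.12 to 0.070, limma adjusted p = 0.518). Clone 1 was the lowest for both.

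**Figure D1:**
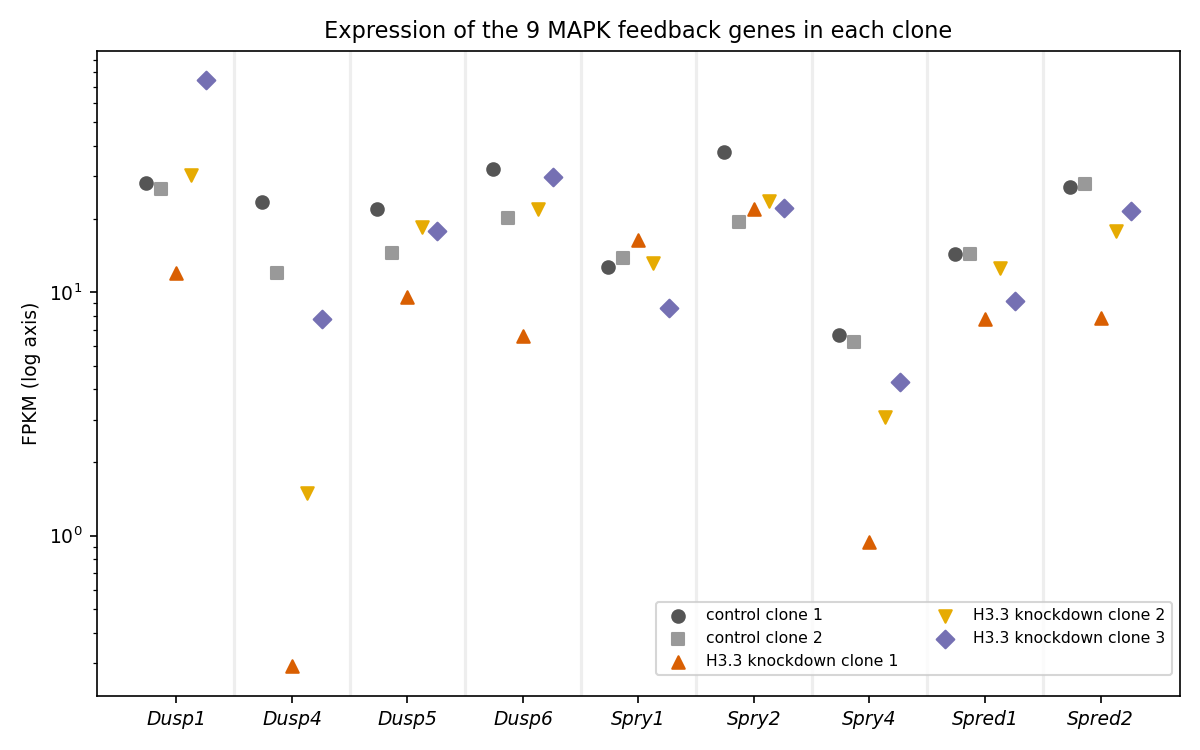
Level of each member in each clone, in FPKM on a log axis, with 1 point per clone (2 control clones, 3 H3.3 knockdown clones). Dusp4 runs from 23.4 FPKM in control clone 1 to 0.291 in knockdown clone 1, whereas the 3 knockdown clones of Spry2 sit together between 22.0 and 23.7.

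The distance of the members from the controls differed between the knockdown clones. On the log2(FPKM + 1) scale, the median distance of the 9 members from the control mean was -1.12 in knockdown clone 1, -0.19 in clone 2 and -0.33 in clone 3, against -0.13, -0.083 and -0.063 for all genes. In clone 1, 8 of the 9 members lay below the control mean, and in clones 2 and 3, 7 did, against 58.8%, 58.9% and 55.6% of all genes. The clone with the lowest member levels was thus the clone with the highest remaining H3f3a and H3f3b and the clone that stood apart over all genes. The median difference over the members was -0.28 without that clone, but also -0.28 without control clone 1 and -0.72 without control clone 2, so it moved with control clones as well. The number of members with all knockdown clones below the controls was 4 with and without knockdown clone 1. Without it, 1 member, Dusp1, lay above both controls in all remaining knockdown clones. The share of all genes was not counted without that clone, and groups of fewer clones separate more easily.

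**Figure D2:**
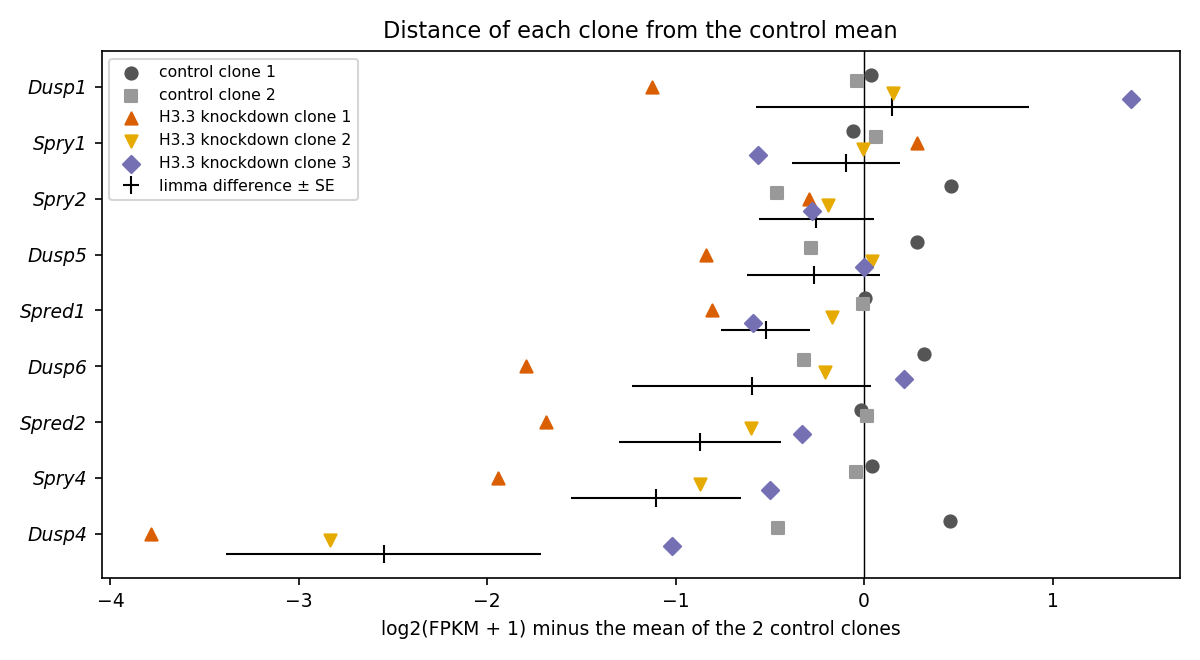
Distance of each clone from the mean of the 2 control clones on the log2(FPKM + 1) scale, with the limma difference and its SE as a bar below each row. Knockdown clone 1 is the lowest point for 7 of the members shown, and Dusp1 has knockdown clones on both sides of 0, from -1.12 to 1.42.

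The other genes of the pathway were counted in 7 lists, and none of their tested genes was called. Their counts are to be read against all genes, of which 59.9% were fitted lower and 21.2% were lower and 11.4% higher in all knockdown clones, with a median of -0.10. Several lists, such as the cascade and the ERK targets below, had shares lower in all knockdown clones near that of all genes. Growth factor ligands had the lowest median, -0.72, with all 10 tested genes (of 17 listed) fitted lower and 4 of them lower in all knockdown clones. Fgf7 and Pdgfa were the most abundant of these. Hgf, the ligand of Met, had the smallest p, with a log2 difference of -1.82 (SE 0.43, limma adjusted p = 0.442), and Ereg, a ligand of the EGF receptor, had -1.57. The receptors were split: 5 of 12 tested genes were fitted lower and 7 higher, with a median of 0.11. Axl and Fgfr1 were the most abundant receptors, and Pdgfrb, a PDGF receptor, had the smallest p with a difference of 0.94 (SE 0.26, limma adjusted p = 0.451), while Erbb2 had -0.54.

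Of 19 tested genes from receptor adaptors to ERK, 14 were fitted lower and 4 were lower in all knockdown clones, with a median of -0.19. Map2k2, which encodes a MEK kinase, was among the most abundant, and Ptpn11 (-0.72) and Nras (-0.61) had the smallest p. Of the 11 genes of the p38, JNK and ERK5 branches, 9 were fitted lower and 6 were lower in all knockdown clones, with a median of -0.14. Map2k3 (-0.70) and Map2k4 were the most abundant, and Mapk14, which encodes a p38 kinase, had -0.77. Of 15 other inhibitory proteins of the pathway, 13 were fitted lower and 6 were lower in all knockdown clones, with a median of -0.38. Pebp1 and Pea15a were the most abundant. Rasa1, a Ras GTPase-activating protein, had -0.81, and Lrig1, which promotes turnover of receptors, had -1.10. Of the 9 tested relatives of the members (of 12 listed), 7 were fitted lower and 3 were lower in all knockdown clones, with a median of -0.39. Dusp9 had -1.78, Dusp7 -0.54 and Dusp10 0.46.

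Of the 22 transcriptional targets and effectors of ERK, 18 were fitted lower, 5 were lower in all knockdown clones and 2 were higher, with a median of -0.29. The ETS factors Etv4 and Etv5, known ERK-responsive genes, had the smallest p, with log2 differences of -2.23 (SE 0.72, limma adjusted p = 0.469) and -1.59 (SE 0.59, limma adjusted p = 0.493). Etv4 was at 52.8 and 33.3 FPKM in the controls and 2.49, 12.6 and 15.4 in the knockdown clones, lowest in clone 1 as were 7 of the members. Egr1, an immediate-early factor, lay above both controls in all knockdown clones with a difference of 0.39. Ccnd1, which encodes cyclin D1, was at 121 and 68.2 FPKM in the controls and 14.4, 48.2 and 176 in the knockdown clones. The knockdown clones of Ccnd1 thus lay on both sides of its controls. These values are descriptions of lists, without a test of any list.

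The median profile of the members over the 5 clones was 0.51 and 0.12 in the controls and -1.16, 0.053 and 0.16 in the knockdown clones, on the centred log2 scale. Dusp6 (r = 0.9791), Spred2 (0.9549), Dusp5 (0.9447) and Spry4 (0.9405) followed it most closely, and Spry1 ran against it (-0.5802). Each member is itself part of the profile, so these correlations are partly built in. Outside the set, Kntc1, Aurkaip1, Nup160, Piezo1 and Lrpprc had the most similar profiles, with r from 0.9986 to 0.9995 over the 5 clones. Of 11719 other genes, 1258 had r above 0.9, so the profile, which is dominated by knockdown clone 1, is common in these libraries.

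In chromatin, every member had peaks of all 3 active marks. The authors' peak lists were searched within 2 kb of either end of each locus in build mm9. Dusp1 lies at chr17:26642536-26645417, Dusp4 at chr8:35870664-35882948, Dusp5 at chr19:53603808-53615812, Dusp6 at chr10:98725865-98730123, Spry1 at chr3:37538872-37543521, Spry2 at chr14:106291164-106296036, Spry4 at chr18:38745919-38760922, Spred1 at chr2:116946807-117008013 and Spred2 at chr11:19824445-19922600. H3K4me3 and H3K9ac peaks were found at all 9 members, as at 91.7% and 86.2% of the genes tested in RNA, and H3K27ac at all 9, as at 64.9%. The H3K4me3 peak over the start was 3366 bp (Spry1) to 8188 bp (Spry2) wide. Among the 10749 genes with such a peak the median of the widest was 2865 bp, and 6 members, Spry2, Dusp6, Dusp1, Spred1, Dusp4 and Dusp5, lay between the 93.1st and 99.2nd percentile. Spry4, Spred2 and Spry1 lay at the 82.1st, 75.0th and 67.5th. All 9 had the score 3100, which 8591 peaks of that list share, so height cannot rank them there. The peak score is the authors' own, and its definition is not given in the sources used here.

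H3K9ac separated the members more. The best score was 2620.02 at Spred2, 2312.58 at Dusp6, 2281.61 at Dusp4 and 2197.09 at Spry2, all above the 98th percentile of genes with a peak. It was 805.35 at Dusp5 and 735.04 at Spry1, at the 68.1st and 63.4th. H3K27ac was widest and highest at Spred2, where a single peak of 1300 bp scored 478.11 (rank 100 of 26629). At Dusp6 7 peaks ran from -2083 to 1556 relative to the start, the best scoring 436.27. At Dusp4 a 1258 bp peak over the start scored 402.29. Dusp5 had 1 narrow peak of 276 bp that scored 94.27, and Spry2 had 4 small peaks, the best scoring 110.67. Spry2 thus had the widest H3K4me3 peak of the set with H3K27ac below the median of genes that have such a peak (121.5).

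RBBP4, a histone-binding subunit of NuRD and of other complexes, had peaks at the same 7 members in control and in knockdown cells, as 15.2% and 16.0% of tested genes did. Spry4 and Spred2 had none in either list. The lists come from 1 library per condition, and their depth is not known, so peaks gained or lost between them have no replicate check. Of all tested genes, 1029 had a peak in both lists, 757 in the control list only and 853 in the knockdown list only.

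Spry1 held the strongest RBBP4 peak of the set. In control cells it was 1446 bp wide, from -122 to 1324 relative to the start (mm9 chr3:37538750-37540195), and scored 909.13, rank 65 of 3561. In knockdown cells 2 peaks lay inside that stretch, of 440 bp from 4 to 444 scoring 176.24 (rank 325 of 2919) and of 264 bp from 816 to 1080 scoring 91.47. Over tested genes with an RBBP4 peak, the widest peak had a median of 297 bp in the control and 214 bp in the knockdown list. The best score per gene had a median of 90.59 and 78.47, and Spry1 lay at its 97.2nd and 85.7th percentile. Over all peaks the median score was 67.09 and 68.92. At Dusp6 the control list had 3 peaks, at -2000, -1419 and 640, scoring 50.60, 65.28 and 175.41, and the knockdown list 1 peak at 832 scoring 56.07, inside the strongest of the 3. At Dusp4 the control list had 1 peak from 146 to 588 scoring 106.08, and the knockdown list had 3 from 96 to 966 scoring 100.49, 106.80 and 93.71.

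The remaining RBBP4 peaks were small. Dusp1 had 1 control peak of 165 bp scoring 51.10 and 2 knockdown peaks of 171 and 166 bp scoring 50.93 and 57.95. Spred1 had 1 of 142 bp scoring 58.70 and 1 of 181 bp scoring 71.81, both over the start. Dusp5 had 1 of 306 bp scoring 69.78 over the start and 1 of 171 bp scoring 61.28 just upstream. Spry2 had 2 control peaks, scoring 112.12 over the start and 51.42 at -2018, and 1 knockdown peak scoring 61.42 from -304 to -162 that overlapped neither. Spry2 was the only one of these 7 genes at which no control peak was overlapped by a knockdown peak.

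MTA1, another NuRD subunit, had peaks at 2 members in control cells, Spry1 and Spred1, and at 3 in knockdown cells, Spry1, Dusp1 and Spry2, against 3.65% and 3.89% of tested genes. Of all tested genes, 124 had an MTA1 peak in both lists, 304 in the control list only and 332 in the knockdown list only. Most genes with an MTA1 peak thus had it in a single list. At Spry1 the control list had 3 peaks at 244, 601 and 879, of 295, 179 and 220 bp, scoring 172.17, 61.22 and 80.40. The knockdown list had 1 peak of 1181 bp from -208 to 973 scoring 102.68 that overlapped all 3. The Dusp1 knockdown peak was 1145 bp wide over the start and scored 107.61, and the Spry2 knockdown peak was 672 bp wide at -2417 and scored 57.64. The Spred1 control peak was 134 bp wide over the start and scored 62.20. MTA1 peaks were wider in the knockdown list as a whole, with a median of 861.5 bp over 904 peaks against 150 bp over 1703 control peaks, so the width at these genes moves with the list. The sequential FLAG-H3.3 then RBBP4 list held 6 peaks in all, none at a member and at 8 tested genes (0.0682%).

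**Figure D3:**
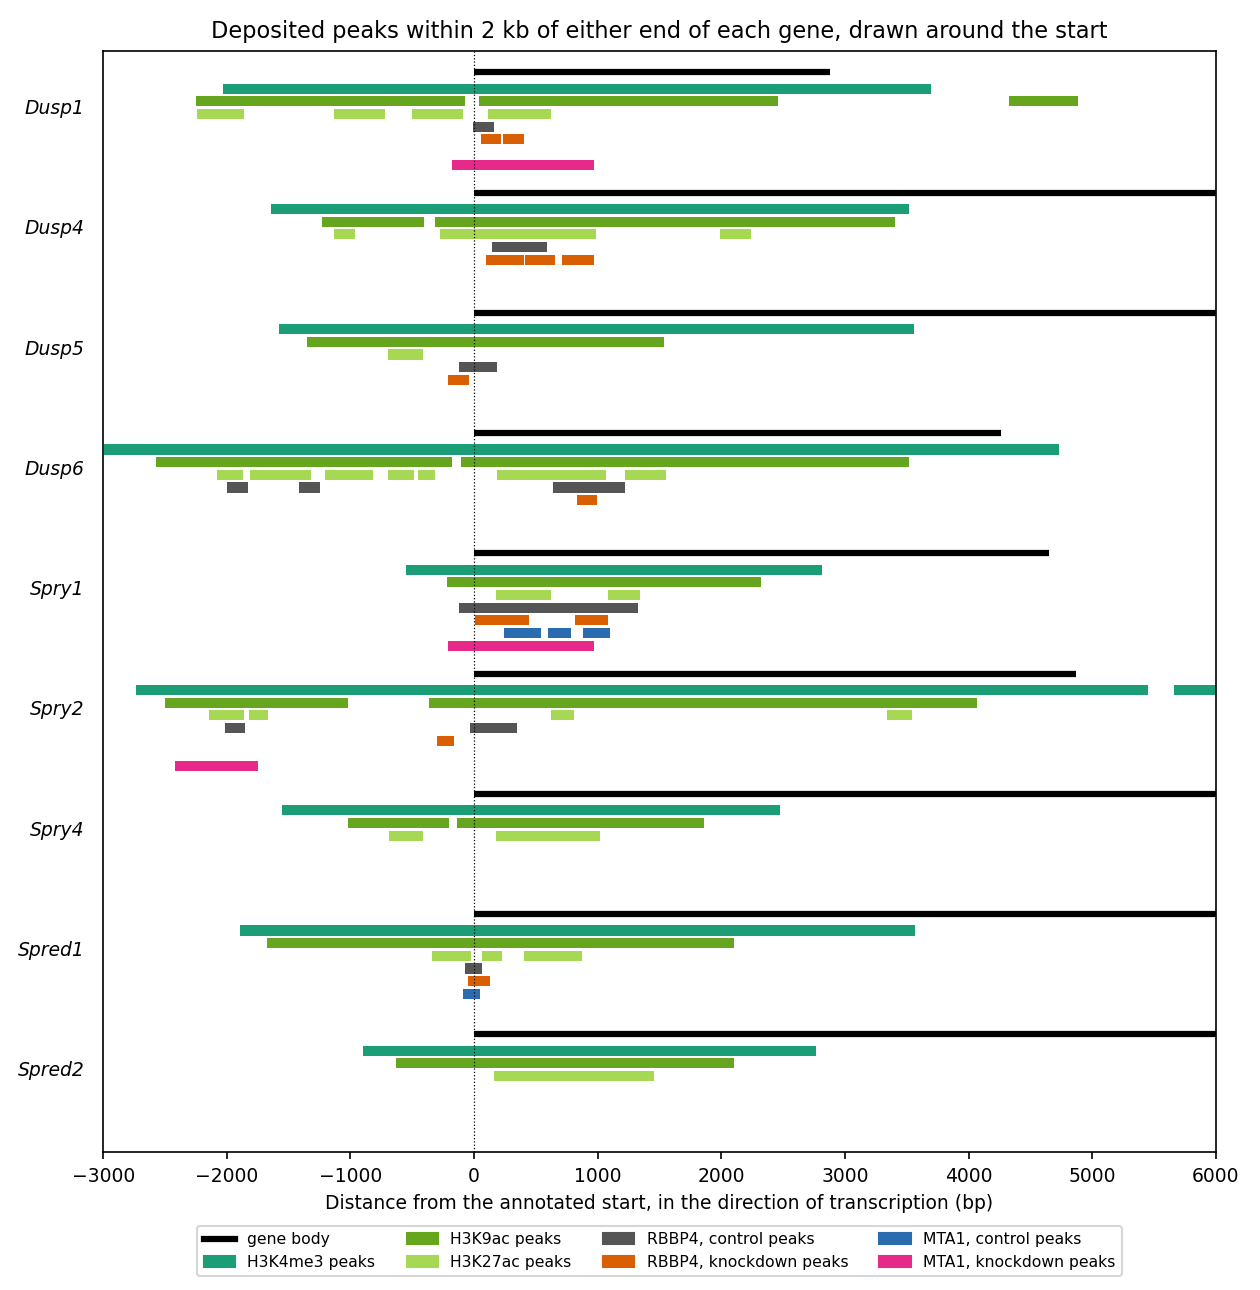
Deposited peaks around the annotated start of each member, with distance from the start in bp along transcription on the x axis and 1 coloured track per list under the black gene body. H3K4me3 peaks cover every start, RBBP4 peaks are missing at Spry4 and Spred2, and the control RBBP4 peak of Spry1 spans 1446 bp where the knockdown list has 2 short peaks.

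Levels of the subunits and marks in unmodified cells, and of HA-H3.3 in the cells with the tagged construct, came from the authors' table of 82893 regions, as RPKM (reads per kilobase, scaled to library size) recovered from log2(RPKM + 1). Each of the 9 members had 1 region over its start, and each was ranked among the 5995 listed regions over starts of expressed genes. These regions cover the starts of 6500 genes, while 8587 expressed genes had a RefSeq strand. Starts without a listed region are left out, and every region listed at a member held an H3.3 or subunit peak. Percentiles and shares of start regions below are thus among starts with a listed region, not among all expressed genes. By estimate from the levels, the HA-H3.3 libraries held about 13600000 and 18400000 reads, the subunit libraries 6620000 to 11000000 and the mark libraries 20600000 to 24100000. Each subunit and mark has 1 library, and intervals below are exact 95% Poisson intervals that cover counting error only.

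H3.3 peaks in the start region were found at 8 of the 9 members in both replicates, against 76.0% and 78.7% of start regions. Spry1 was the exception, having no H3.3 peak in either, as 17.7% of start regions do. At Spry1 the H3.3 level was 0.906 RPKM (14 reads, interval 0.495 to 1.52) and 1.15 RPKM (24 reads, interval 0.735 to 1.71), at the 5.35th and 9.83rd percentile. Only 256 start regions (4.27%) were as low in both replicates. The other 8 members had 2.25 to 6.07 RPKM in replicate 1 and 4.20 to 6.05 in replicate 2, where the median start region had 3.37 and 3.43. Dusp1 (6.07 and 6.04) was highest in replicate 1 and Dusp4 (4.28 and 6.05) in replicate 2 by a small margin, and Spry2 differed most between replicates, with 2.25 and 5.25.

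RBBP4 at the same Spry1 region was 7.32 RPKM (75 reads, interval 5.76 to 9.17), rank 75 of 5995 and the 98.8th percentile, with a peak over the whole region. The region is listed through its RBBP4 and HDAC2 peaks, and at 1139 bp it is the shortest of the 9 start regions, while the other members' regions also hold H3.3 peaks and reach 7876 bp. How far these levels depend on where the regions begin and end was not tested, so the low H3.3 and high RBBP4 of Spry1 are a description of the listed region. In the control list, which is a separate library, Spry1 had the strongest RBBP4 peak of the set, as given above. H3K4me3 at this region was 19.0 RPKM (68.9th percentile), where the median start region had 15.9. CHD4 was 0.957 RPKM (10 reads, interval 0.459 to 1.76), and HDAC2 was 4.11 RPKM (31 reads, interval 2.793 to 5.835, 84.5th percentile). Both intervals hold the level of the median start region, 1.54 RPKM for CHD4 and 2.896 for HDAC2. A second Spry1 region, from 916 to 1390, also had HDAC2 and RBBP4 peaks and no H3.3 peak, with 1.24 and 0.345 RPKM of H3.3 and 3.99 of RBBP4. The only H3.3 peak within the window at Spry1 lay past the gene's end, from 5548 to 6397, in replicate 2 only.

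**Figure D4:**
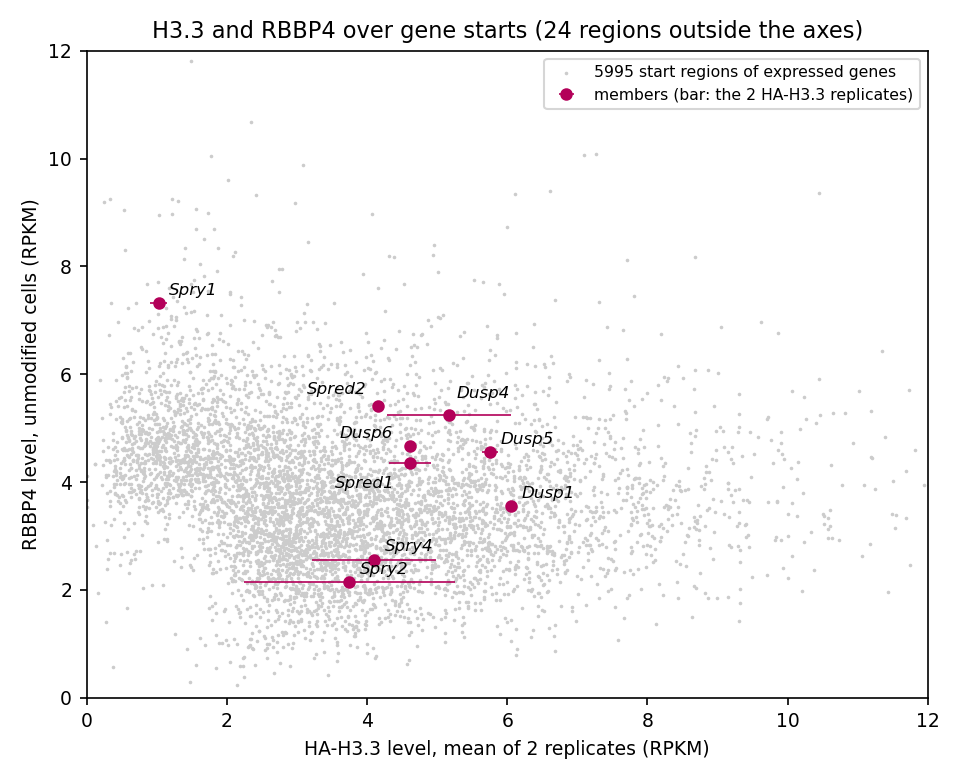
HA-H3.3 (mean of 2 replicates) against RBBP4 in unmodified cells, both in RPKM on linear axes, over 5995 start regions in grey and the 9 members in colour with bars to both H3.3 replicates. 24 regions lie outside the axes. Spry1 sits at the upper left with RBBP4 of 7.32 RPKM, while Spry2 and Spry4 are lowest in RBBP4 at 2.14 and 2.56.

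RBBP4 peaks covered part of the start region of all 9 members, as in 89.2% of start regions, including Spry4 and Spred2, which had no peak in the control and knockdown lists. Spred2 had 5.41 RPKM (89.3rd percentile) and Spry4 2.56 (18.0th). HDAC2 peaks were found at 7 members (56.0% of start regions), HDAC1 at 5 (33.4%), MBD2/3 at 4 (13.9%), MTA1 at 3 (12.5%) and CHD4, the remodelling ATPase, at 2 (11.1%). The MTA1 peaks were at Dusp1, Dusp6 and Spred2, none of which had an MTA1 peak in the control list. Dusp1 had peaks of all 6 subunits, in the longest region of the set (7876 bp). Its subunit levels lay between the 43.4th (HDAC1) and 75.1st (MTA1) percentile. The CHD4, MTA1, MBD2/3 and HDAC1 peaks each covered only 2.51% to 5.43% of that region. Dusp6 and Spred2 had 5 each, Dusp4, Dusp5 and Spred1 3, Spry1 and Spry2 2, and Spry4 only RBBP4. Longer regions can hold more peaks, so these counts are not corrected for length.

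Spred2 and Dusp6 carried the highest deacetylase levels together with high acetylation. Spred2 had HDAC2 of 5.82 RPKM (122 reads, interval 4.83 to 6.95, 98.1st percentile) and MTA1 of 2.75 RPKM (97.1st), with H3K9ac of 6.19 (88.0th). Dusp6 had HDAC1 of 3.73 RPKM (132 reads, interval 3.12 to 4.42, 93.7th percentile), HDAC2 of 4.60 (91.3rd), H3K27ac of 3.34 (92.8th) and H3K9ac of 6.79 (92.1st). Dusp4 had RBBP4 of 5.25 RPKM (87.7th), HDAC2 of 3.77 (77.0th) and H3.3 of 4.28 and 6.05. At the other end, the Spry2 start region had CHD4 of 0.525 RPKM (6 reads, interval 0.193 to 1.14, 2.04th percentile), MTA1 of 0.582 (8 reads, 2.11st) and RBBP4 of 2.14 (9.98th) with H3K9ac of 6.47 (90.3rd). A neighbouring Spry2 region, from -2387 to -406, had more RBBP4, 3.70 RPKM, and HDAC2 of 3.81. Spry4 was low for HDAC1 (1.27 RPKM, 10.4th percentile), HDAC2 (1.95, 17.3rd) and MTA1 (1.03, 17.6th) with H3.3 of 3.21 and 4.98.

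Dusp5 and Spred1 had few extreme levels. Dusp5 had high H3.3 (5.87 and 5.64 RPKM, 81.0th and 84.8th percentile) with low H3K9ac (2.45, 26.9th) and H3K4me3 (12.1, 28.0th), and Spred1 lay between the 37.5th and 76.3rd percentile for every track. Dusp1 had the lowest H3K4me3 of the set, 9.05 RPKM (16.1st percentile), averaged over a region that runs past both ends of the gene. Over the members as a whole, the median percentile was highest for H3.3 replicate 2 (77.4), RBBP4 (74.7) and HDAC2 (72.9) and lowest for MTA1 (46.0) and HDAC1 (46.7).

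**Figure D5:**
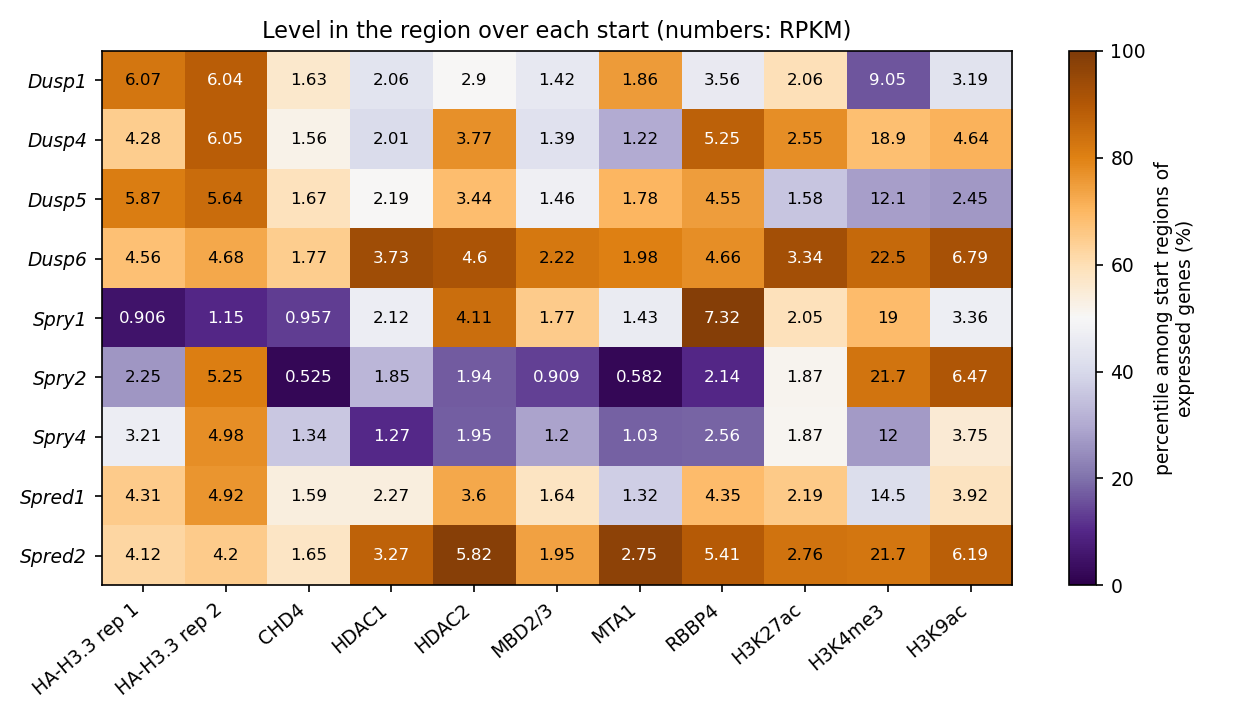
Percentile of each member's start region among 5995 start regions (colour, 0 to 100%) for 11 libraries, with the RPKM written in each cell. Spry1 is low for both H3.3 replicates and high for RBBP4, and Spred2 and Dusp6 are high across HDAC1, HDAC2, RBBP4 and the marks.

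Set beside expression, the 4 members with all knockdown clones below the controls differed in their RBBP4 peaks. In the control and knockdown lists, Dusp4 had RBBP4 peaks, Spred1 had small ones over its start, and Spry4 and Spred2 had none. In unmodified cells all 4 had an RBBP4 peak in the start region, and Spred2 (5.41 RPKM) was close to Dusp4 (5.25 RPKM), with Spry4 lowest (2.56). Spry1, with the strongest RBBP4 and MTA1 control peaks of the set, had overlapping expression in the 2 groups. In unmodified cells the Spry1 start region had no MTA1 peak, and its MTA1 level was 1.43 RPKM (46.0th percentile). The ChIP libraries were not made from the clones sequenced for RNA as far as the labels say, so the readouts are set side by side only.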

How the data were processed

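The 28 samples were grouped by their titles and characteristics. Members and gene lists were chosen with earlier results of these data known. All 9 members are named; from each list, the 2 genes of highest FPKM and the 2 of smallest p, and the 5 non-members of most similar profile. The values of 1 gene that this rule names are not reported here.

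The authors deposited FPKM per gene with upper bounds, a log2(RPKM + 1) level and a covered fraction per region and library, and peak lists with a score per peak. The sequential list, per the file headers, was called with MACS 2.1.1.20160309 and gives pileup signal, -log10 p and q and fold enrichment (a ratio to background), of which positions were used. The submitters' processing notes name Bowtie, bedtools, TopHat, Cufflinks, Cuffdiff, MACS2 and mm9, without versions; the peak score's definition is not given in the sources used here.

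FPKM entries of 1 symbol were summed. limma 3.58.1 (R 4.3.3; trend, two-sided, Benjamini-Hochberg) was run on log2(FPKM + 1) for genes that averaged 1 FPKM or more over the clones; this scale understates the change of low genes. FPKM are not counts, so fragments were estimated from the deposited upper bound, taken as 2 SD above the value. Region reads and library sizes were estimated from the log2 levels and region lengths, by fitting the value that 1 read is worth. Among values under 100 reads, 100% were whole within 0.05, though the same values set that fit. Peaks counted from 1 shared base within 2 kb of a locus end; coordinates are mm9, counted from 1. Strand came from RefSeq for 7 members and, for Dusp4 and Spry4, from the authors' feature classes. RefSeq and mm9 spans were equal for Dusp1, Dusp4, Dusp6 and Spry2. They differed for Dusp5, Spry1, Spry4, Spred1 and Spred2, at Spry1 with 4653 against 4650 bp, so the RefSeq start may not be the start in mm9. Input libraries were not analysed here.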

Additional observations from a re-analysis of the deposited data

How the results depend on the processing

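No member was called under any alternative run: a pseudocount of 0.1, no filter, a minimum FPKM of 5, quantile normalization, no trend, the replicate block, short RNA genes left out (chosen after seeing the data), or any clone left out. The number of genes called over the whole table was 4; it was 0 without short RNA genes, 0 with the replicate block and 5 to 36 with a clone left out. The block uses clone numbers that no label ties to a shared source (same-number correlations -0.25 and -0.0952), and it in effect drops knockdown clone 3, which has no control of its number; with it Dusp1 was at -0.49 and Spry1 at 0.14. Quantile normalization put Spry1 at 0.037. With a clone left out, the log2 differences ran from -0.49 to 0.78 for Dusp1, -0.55 to 0.0197 for Dusp5, -1.0 to 0.00395 for Dusp6, -0.28 to 0.14 for Spry1 and -0.72 to 0.21 for Spry2; these 5 directions each turn when 1 clone is left out, for Dusp5 either control clone 1 or knockdown clone 1. Dusp4 (-3.31 to -1.93), Spry4 (-1.41 to -0.69), Spred1 (-0.70 to -0.38) and Spred2 (-1.14 to -0.47) stayed lower. Members lower in all knockdown clones numbered 3 at a minimum FPKM of 5, which removes Spry4. With a clone left out they numbered 4 to 7, with 7 when control clone 2 was left out. Members higher numbered 0 to 1, with 1 when control clone 1 or knockdown clone 1 was left out. The shares of all genes were not counted in these runs. The 21.2% and 11.4% given above hold for all 5 clones, and groups of fewer clones separate more easily, so these counts have no background. With a score of at least 100, RBBP4 peaks were found at 4 members in control and 2 in knockdown cells and MTA1 control peaks at 1. MTA1 knockdown peaks were found at 2 members in place of 3 with that score, with a window of 1 kb, or with 50% of the peak in the window. Region levels were also summarized as the highest region within 2 kb of either locus end, which need not be the start region. The median of this over members was 4.61 RPKM for H3.3, as the mean of both replicates, and 18.9 for H3K4me3. With regions averaged by length in place of the highest, it was 4.10 and 12.6. With a clone left out, a group of 1 is assumed to vary like the other group. Counts in each peak list have 1 library per condition, and low region levels rest on as few as 6 reads.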
